A study of Mus musculus with 70 samples.

Results

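RNA of ST2+ CD44hi regulatory T cells (Tregs) from the lungs was compared with RNA of the same kind of Treg from the spleen. The members were the libraries labelled Lungs ST2+ CD44hi Tregs and Spleen ST2+ CD44hi Tregs whose column total exceeded 1000000 counts. All 5 lung libraries and all 5 spleen libraries met this rule, so 10 of the 70 libraries of the series were members. The series holds 14 groups of sorted Tregs from blood, spleen, lungs, visceral adipose tissue (VAT), colon and skin, and 67 of its libraries passed the same total. The question was how the ST2+ Tregs of a nonlymphoid tissue differ from those of a lymphoid organ in the same animals.

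Both groups came from the same 5 male Foxp3YFP-cre mice, aged 16.6, 17.1, 17.4, 18.1 and 18.6 weeks (mice 1 to 5). In this strain the Foxp3 locus drives a yellow fluorescent protein fused to Cre recombinase, so that Tregs can be sorted alive, and the labels give neither a floxed allele nor a treatment. Each library was made from 220 cells that were CD4+ YFP+ ST2+ CD44hi and negative for lineage markers such as CD8 and CD11b. Vessels were flushed with buffer before the organs were taken. In the study, antibody given into the blood labelled most lung Tregs whatever their ST2 status, and flushing did not change the labelled share. Its authors could not exclude circulating cells among lung and spleen Tregs, though they held it unlikely that these were circulating cells alone. Lung tissue was digested with collagenase and DNase for 30 min at 37 °C, whereas the spleen was broken up mechanically without enzymes, so that tissue and digestion cannot be told apart between these groups. The values thus describe untreated adult males, and each animal gave 1 library of this kind per tissue.

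Tregs are CD4+ T cells that need the transcription factor Foxp3 and that restrain immune responses. ST2, encoded by Il1rl1, is the receptor for the alarmin IL-33, which stressed barrier and stromal cells release. Its signal passes through MyD88 to NF-kB and MAP kinases, and Tregs that carry ST2 are known in tissues for making amphiregulin, a growth factor that aids epithelial repair.

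Total counts ran from 1524842 to 2354863 in the lung libraries (median 2276485) and from 1852476 to 2625746 in the spleen libraries (median 2451402). The lung libraries held 13761 to 15056 detected genes and the spleen libraries 14354 to 15602. Mitochondrial genes took 0.372 to 0.606% of counts in the lungs and 0.339 to 0.517% in the spleen. Member totals all lay well inside the threshold, and the lowest was 1524842. The libraries that it removed from other groups were blood ST2+ mouse 1 (488666 counts), colon ST2+ mouse 2 (3582) and colon ST2+ mouse 5 (62333). All 10 member libraries held distinct values.

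The sort markers were read first. Foxp3 stood at 198 ± 19.2 counts per 1000000 (CPM; SD, n = 5) in the lungs and 169 ± 35.5 in the spleen, a log2 difference of 0.22 ± 0.13 (SE) that did not pass the test (edgeR adjusted p = 0.34). Il1rl1, the gene for the receptor used in the sort gate, had CPM of 894, 932, 921, 992 and 793 in the lung libraries of mice 1 to 5, against 228, 274, 322, 270 and 313 in the spleen. Every lung library lay above every spleen library. The log2 difference was 1.69 ± 0.38 (SE; edgeR adjusted p = 0.00176), although DESeq2 did not call it. Its mean was 547 ± 48.7 in blood (n = 4 libraries, from 202, 55, 220 and 220 cells in mice 2 to 5) and at most 5.11 in the ST2- groups of lungs and spleen. Cd44, the other gate marker, was also higher in the lungs (log2 difference 1.07 ± 0.20), so cells within this gate carried more RNA of both sort markers when they came from the lungs. Cd8a was at 0 in all 10 libraries.

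Of 13173 protein-coding genes tested, 647 (4.91%) were called, which required a change of 1.5-fold or more and an edgeR p no greater than 0.05 after Benjamini-Hochberg adjustment. In the lungs 456 genes (3.46%) were higher and 191 (1.45%) lower, and the median log2 difference over all tested genes was 0.00. Among the higher genes 289 differed by at least 2-fold, 142 by at least 4-fold and 86 by at least 8-fold. Of the lower genes 119, 50 and 31 passed those limits. The 5 lung and 5 spleen libraries did not overlap for 386 of the higher genes (84.6%) and 153 of the lower genes (80.1%). Over all tested genes such separation was seen for 690 (5.24%) with the lungs above and 566 (4.3%) with the lungs below. In bulk RNA of sorted cells, fewer cells that express a gene and less RNA per cell cannot be told apart.

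With mouse as a block in the fit of all groups the counts were 495 and 220. With the block and only the compared populations in the fit they were 558 and 373, so the number of lower genes rests on the model more than that of higher genes. It was 93 without mouse 3, 99 without mouse 4 and 112 without mouse 5.

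**Figure D1:**
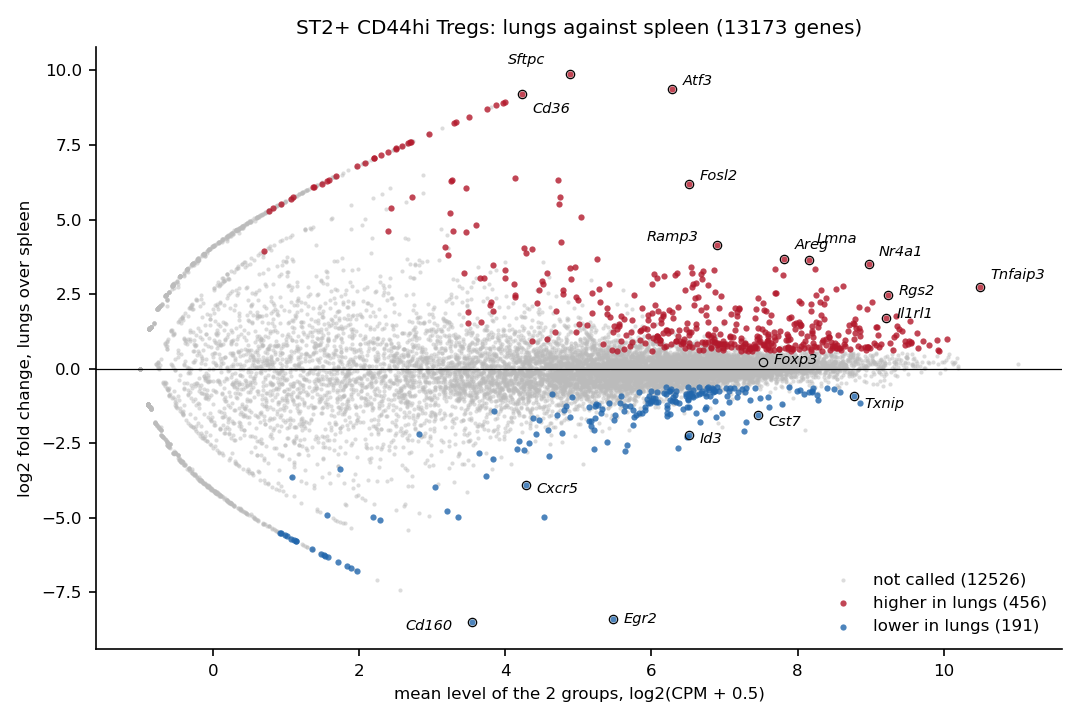
Each point is 1 of 13173 genes, with the mean of lungs and spleen as log2(CPM + 0.5) on the x axis and the fitted log2 fold change of lungs over spleen in ST2+ CD44hi Tregs on the y axis. Red points are the 456 genes called higher in the lungs, blue points the 191 called lower and grey points the genes not called, the curved edges are genes without counts in 1 of the tissues, and Tnfaip3 is the gene highest on the x axis among those called.

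The 10 higher genes with the smallest adjusted p were Tnfaip3, Ubl3, Vps37b, Fosl2, Ifrd1, Dusp10, Tgif1, Gna13, Mxd1 and Tmem64. Tnfaip3 (ENSMUSG00000019850; GRCm38 chromosome 10, 19000910 to 19015657, minus strand) encodes A20, a ubiquitin-editing enzyme that ends NF-kB signalling. Its CPM was 2447, 2561, 2449, 2904 and 2173 in the lungs of mice 1 to 5 and 303, 483, 351, 466 and 276 in the spleen. The lowest lung library stood far above the highest spleen library, and the log2 difference was 2.74 ± 0.17 (SE; edgeR adjusted p = 2.62e-19). Dusp10, a phosphatase of the stress kinases p38 and JNK, rose from 53.5 ± 12.9 to 548 ± 108 CPM. Mxd1, which competes with Myc for Max, rose from 88.1 ± 27.7 to 550 ± 125 CPM. Gna13, a G protein subunit that helps confine lymphocytes, rose from 210 ± 25.1 to 669 ± 77.7 CPM. Vps37b, part of the ESCRT-I sorting complex, rose from 36.6 ± 10.9 to 376 ± 64.4 CPM. Tgif1, a repressor of TGF-beta responses, stood at 433 ± 35.8 CPM in the lungs and 93.5 ± 23.2 in the spleen. The other 3 were Ubl3 with a log2 difference of 1.46 ± 0.11, Ifrd1 with 2.68 ± 0.22 and Tmem64 with 1.66 ± 0.15. Lungs and spleen did not overlap for any of the 10.

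The 10 lower genes with the smallest adjusted p were Il16, Cst7, Tmem173, Socs1, Egr2, Slfn1, Trim59, Txnip, Ifi47 and Izumo1r. Cst7, the cathepsin inhibitor cystatin F, had CPM of 96.4, 77.5, 82.4, 82.8 and 102 in the lungs of mice 1 to 5 and 233, 257, 275, 278 and 267 in the spleen, a log2 difference of -1.57 ± 0.23 (edgeR adjusted p = 6.22e-07). Tmem173, which encodes the cytosolic DNA sensor adaptor STING, fell from 483 ± 45.6 to 281 ± 17.1 CPM. Izumo1r, the folate receptor 4 gene used as a Treg marker, fell from 638 ± 52.0 to 284 ± 33.6 CPM. Slfn1, a Schlafen gene of resting T cells, fell from 178 ± 24.4 to 57.8 ± 15.3 CPM. Txnip, which binds thioredoxin and limits glucose uptake, fell from 568 ± 75.5 to 304 ± 52.7 CPM. Il16 differed by -0.80 ± 0.11 and Trim59 by -1.07 ± 0.18 on the log2 scale. Again no lung library reached the spleen range for any of the 10. When the test required the fold itself to exceed 1.5 (glmTreat), Il16, Tmem173, Trim59, Txnip and Ifi47 were not called.

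The list with the greatest share of called genes was that of AP-1 and the immediate early response, whose members code for transcription factors and regulators that T cells switch on within minutes of a stimulus. Of 27 listed genes, all tested, 16 were higher in the lungs and 1 lower (63.0% called, against 4.91% of all genes), and the median log2 difference was 1.07 against 0.00. The list was chosen with earlier results of these data known, so its count describes these libraries and is not independent evidence.

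Among the AP-1 subunits, Fosl2 (GRCm38 chromosome 5, 32135801 to 32157842, plus strand) had CPM of 189, 117, 211, 238.5 and 142 in the lungs of mice 1 to 5. In the spleen it had 0.376, 4.39, 4.75, 2.67 and 0.367. It was thus close to absent in the spleen and present in every lung library, with a log2 difference of 6.18 ± 0.49 (SE; edgeR adjusted p = 5.24e-15). Atf3, a stress-induced factor that pairs with Jun proteins, had CPM of 110, 173, 93.9, 222 and 175 in the lungs. The spleen libraries held 2 Atf3 counts in all, and the lung to spleen ratio of normalized counts was 883 (95% counting interval 244 to 7301). Fosb rose from 23.0 ± 14.6 to 183 ± 39.1 CPM, Junb from 652 ± 148 to 1272 ± 163 and Jund from 87.2 ± 18.2 to 153 ± 18.1. Fos stood at 734, 884, 718, 883 and 727 CPM in the lungs and at 66.6, 492, 52.2, 357 and 18.3 in the spleen. The spleen libraries of mice 2 and 4 were thus far above those of mice 1, 3 and 5, and the call (log2 difference 2.01 ± 0.50, edgeR adjusted p = 0.00641) was lost without mouse 3 (log2 difference still positive). Jun itself did not pass (0.48, edgeR adjusted p = 0.58), nor did Egr1 (-0.10, edgeR adjusted p = 0.98).

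The 3 orphan nuclear receptors of the Nr4a family, which are induced by antigen receptor and cAMP signals, rose together. Nr4a1 had CPM of 963, 1026, 967, 988 and 673 in the lungs of mice 1 to 5 and 132, 108, 118, 30.5 and 18.3 in the spleen (log2 difference 3.50 ± 0.39, edgeR adjusted p = 5.35e-10). Nr4a2 rose from 13.3 ± 12.7 to 117 ± 47.2 CPM and Nr4a3 from 15.8 ± 7.95 to 144 ± 29.97 CPM. Feedback genes rose as well. They were the phosphatase gene Dusp1 (705 ± 275 to 1408 ± 210 CPM), Zfp36, whose product destabilizes cytokine mRNA (276 ± 120 to 653 ± 70.6), Ppp1r15a, which restores translation after stress (178 ± 90.1 to 735 ± 62.4), and Gadd45b (105 ± 10.8 to 478 ± 97.2). Ier2, Btg2 and Klf6 completed the 16 with log2 differences of 0.89, 1.07 and 1.12.

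Egr2 (GRCm38 chromosome 10, 67535475 to 67542188, plus strand), a T cell receptor induced factor that limits activation, moved the other way. It had CPM of 171, 116, 57.4, 23.0 and 69.7 in the spleen of mice 1 to 5. In the lungs the values were 0 in mice 1, 2, 4 and 5 and 0.921 in mouse 3. The lung libraries held 2 Egr2 counts in all, and the ratio of spleen to lungs was 451 (95% counting interval 124 to 3727). Egr2 was also at 0 in all 4 blood libraries of ST2+ Tregs, of which that of mouse 3 came from 55 cells. Counting intervals and floors here cover counting error only.

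Blood ST2+ CD44hi Tregs of the same mice had 5.38 ± 2.71 CPM of Fosl2, 2.94 ± 5.26 of Atf3 and 13.8 ± 8.21 of Nr4a1 (n = 4), far below the lung values. VAT ST2+ Tregs, from a tissue that was digested as the lungs were, had 297 ± 59.7, 578 ± 184 and 1076 ± 111 CPM. For Tnfaip3, blood ST2+ libraries of mice 2 to 5 had 920, 1234, 898.5 and 949 CPM, above every spleen and below every lung library. The part of digestion in these differences was not tested. Of the 13 heat shock genes listed, 0 were called in edgeR, against 4.91% of all tested genes, and their median log2 difference was 0.10. For 13 genes a count of 0 lies near that share, so it says little, and the part of handling was not tested.

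To show the start region of genes that moved together, the 250 bases before the start that RefSeq annotates (GRCm38.p6) were read, 5′ to 3′ on the gene's own strand. The Ensembl coordinates of Nr4a1, Nr4a3 and Tnfaip3 begin further upstream, so that their windows lie wholly or partly inside the Ensembl gene. They were searched on both strands for TGACG, the core of the cAMP response element bound by CREB and ATF proteins, and capitals mark each match (TGACG, or CGTCA for the other strand). Areg and the Nr4a genes are shown because the results turn on them and their windows hold several matches, a choice made after the search.
Areg, chr5:91139349-91139598, plus strand: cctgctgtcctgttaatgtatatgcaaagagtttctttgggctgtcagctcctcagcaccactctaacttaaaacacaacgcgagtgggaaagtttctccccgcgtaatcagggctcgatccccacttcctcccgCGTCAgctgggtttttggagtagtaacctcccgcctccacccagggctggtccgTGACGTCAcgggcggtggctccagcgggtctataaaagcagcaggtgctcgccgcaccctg
Nr4a1, chr15:101266596-101266845, plus strand: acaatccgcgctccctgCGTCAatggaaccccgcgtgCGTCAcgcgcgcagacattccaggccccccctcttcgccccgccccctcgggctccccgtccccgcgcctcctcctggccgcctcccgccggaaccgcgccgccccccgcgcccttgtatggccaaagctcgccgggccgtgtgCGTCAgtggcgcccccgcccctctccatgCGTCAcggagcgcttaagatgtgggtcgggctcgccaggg
Nr4a2, chr2:57124004-57124253, minus strand: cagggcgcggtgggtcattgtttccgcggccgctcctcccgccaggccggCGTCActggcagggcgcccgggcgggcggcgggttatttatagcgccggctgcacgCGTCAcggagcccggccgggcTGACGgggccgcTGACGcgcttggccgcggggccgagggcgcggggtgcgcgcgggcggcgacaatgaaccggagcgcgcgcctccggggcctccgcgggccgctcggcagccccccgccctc
Nr4a3, chr4:48045055-48045304, plus strand: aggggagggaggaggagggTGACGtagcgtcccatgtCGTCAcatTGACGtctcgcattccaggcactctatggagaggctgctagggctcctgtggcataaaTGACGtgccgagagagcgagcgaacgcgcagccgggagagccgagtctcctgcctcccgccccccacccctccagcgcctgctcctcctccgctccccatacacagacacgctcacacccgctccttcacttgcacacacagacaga
The windows of the 3 Nr4a genes hold 4 matches each and that of Areg holds 3, 2 of which overlap in a palindrome. TGACG on either strand occurred in 17.8% of all 32851 windows of this length, in 39.3% of the 356 higher genes with a window, in 29.6% of the 159 lower genes and in 29.4% of the 9846 tested genes that were not called. A TGANTCA match, the AP-1 site, occurred in 6.75% of all windows, in 8.43% of the higher genes, in 4.4% of the lower genes and in 5.43% of those not called. The 17.8% and 6.75% are shares of windows, whereas the others are shares of genes with a match in any of their windows. The called genes are thus to be set beside the genes not called, not beside all windows. No test was run, and a match is not a measured binding site.

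The NF-kB list, with subunits of the factor and the genes through which it limits itself, had 8 of 21 genes higher and 1 lower (42.9%), and a median log2 difference of 0.40. Nfkbiz, an atypical inhibitor that works in the nucleus, had CPM of 817, 866, 760, 807 and 688 in the lungs of mice 1 to 5. In the spleen it had 304, 320, 315, 376 and 197, with no overlap (log2 difference 1.38 ± 0.19, edgeR adjusted p = 9.3e-08). Nfkbid, a related nuclear inhibitor that promotes Foxp3 expression in developing Tregs, rose from 244 ± 36.7 to 581 ± 109 CPM. Nfkbia, the classical cytoplasmic inhibitor, rose from 523 ± 97.1 to 897 ± 147 CPM. Rel, the c-Rel subunit, rose from 131 ± 35.8 to 365 ± 69.8 CPM. The survival and adaptor genes Birc3 and Traf1 rose by 1.13 ± 0.14 and 0.94 ± 0.12 on the log2 scale, and Zc3h12a, which encodes the RNA-degrading Regnase-1, by 1.65 ± 0.40 with overlapping groups. Bcl3, a nuclear partner of p50 and p52, fell from 191 ± 15.1 to 121 ± 20.2 CPM. Rela (-0.01, edgeR adjusted p = 1), Relb (-0.14, edgeR adjusted p = 0.86) and Nfkb1 (0.53, edgeR adjusted p = 0.087) did not pass. The inhibitor genes Nfkbib (0.14), Nfkbie (0.73), Cyld (0.32), Tnip1 (-0.30) and Tnip3 (-1.50) were not called either (log2 differences).

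Tnfaip3 and Nfkbia are shown with their match to an NF-kB site, searched on both strands as GGG, 2 bases of any kind, TT, 1 base of any kind and CC, and printed in capitals, since they are the gene with the smallest adjusted p and the classical feedback gene.
Tnfaip3, chr10:19015411-19015660, minus strand: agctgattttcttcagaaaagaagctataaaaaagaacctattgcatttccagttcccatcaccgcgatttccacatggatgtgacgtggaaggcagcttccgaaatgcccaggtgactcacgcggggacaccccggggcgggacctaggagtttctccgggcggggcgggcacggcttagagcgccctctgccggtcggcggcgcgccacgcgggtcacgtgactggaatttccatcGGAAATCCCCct
Nfkbia, chr12:55492648-55492897, minus strand: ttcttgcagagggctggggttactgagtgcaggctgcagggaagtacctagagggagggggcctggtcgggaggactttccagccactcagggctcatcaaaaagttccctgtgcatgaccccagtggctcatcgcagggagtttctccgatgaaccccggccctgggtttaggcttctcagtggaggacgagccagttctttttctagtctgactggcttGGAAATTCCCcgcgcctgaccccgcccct
Each window holds 1 match, which begins 12 bases before the start of Tnfaip3 (the more upstream of its 2 RefSeq starts) and 29 bases before that of Nfkbia. Such a match occurred in 4.11% of all windows, in 7.3% of the higher genes, in 5.66% of the lower genes and in 5.7% of the genes not called. The gene shares again count a match in any window of the gene.

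**Figure D2:**
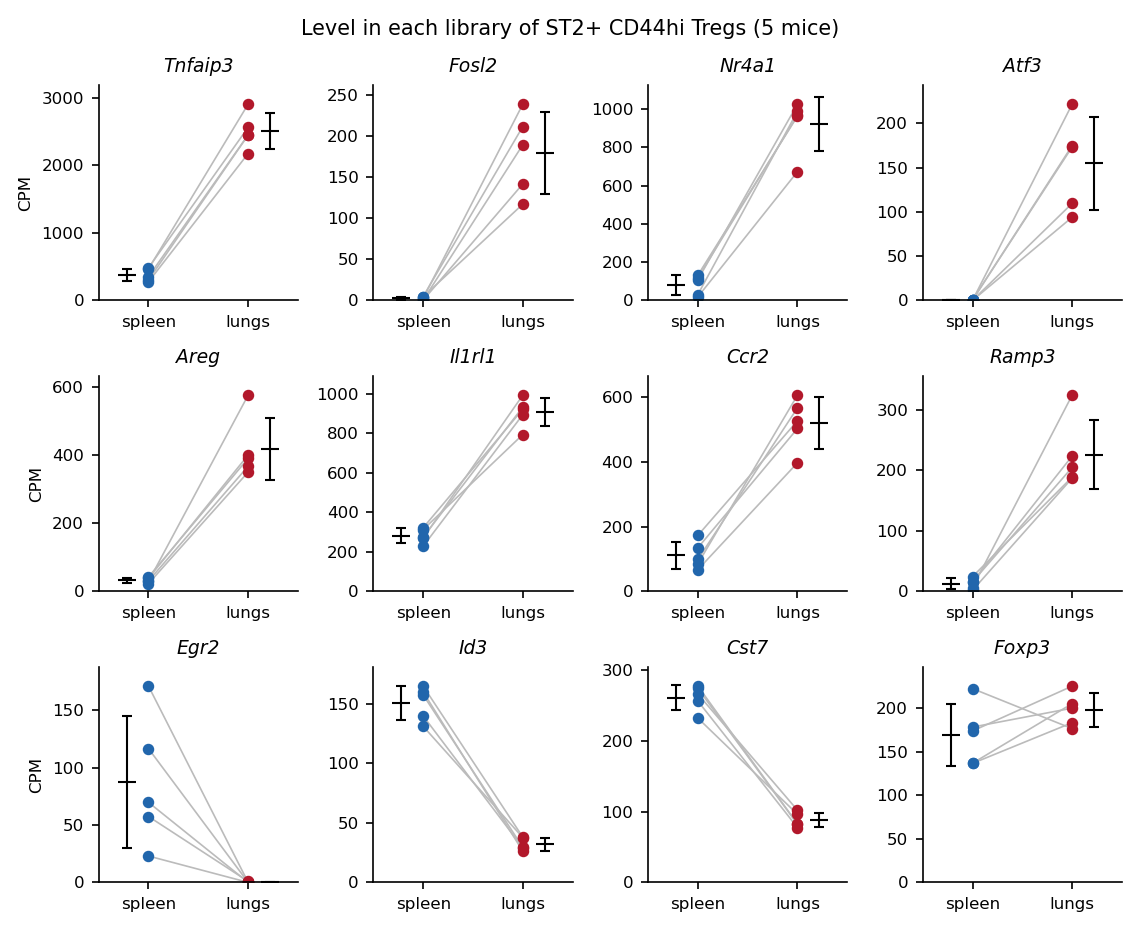
CPM of 12 genes (y axes from 0) in the spleen and lung libraries of ST2+ CD44hi Tregs, with a grey line joining the libraries of each of the 5 mice and black marks for the mean ± SD. All 5 lines rise for the first 8 genes and fall for Egr2, Id3 and Cst7, while those of Foxp3 run both ways.

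Of 26 genes of the tissue Treg program, 10 were higher in the lungs and 0 lower (38.5% called), with a median log2 difference of 0.71. Areg, the repair factor amphiregulin (GRCm38 chromosome 5, 91139599 to 91148432, plus strand), had CPM of 368, 391, 401, 577 and 351 in the lungs of mice 1 to 5 and 30.9, 42.4, 38.8, 29.4 and 23.1 in the spleen. The log2 difference was 3.66 ± 0.35 (SE; edgeR adjusted p = 3.16e-12), without overlap. Blood ST2+ Tregs had 31.8 ± 30.2 CPM of Areg and VAT ST2+ Tregs 636 ± 128. Gata3, the factor of type 2 T cells that cooperates with ST2 signalling, rose from 262 ± 27.7 to 470 ± 55.6 CPM. Rora, a nuclear receptor of type 2 lymphocytes and tissue Tregs, rose from 296 ± 39.4 to 1008 ± 164 CPM. Bhlhe40, a repressor active in tissue lymphocytes, rose from 183 ± 44.2 to 858 ± 184 CPM. Rgs2, which dampens G protein signals, rose from 187 ± 101 to 1024 ± 210 CPM, and Crem, a cAMP responsive factor, from 120 ± 31.0 to 462 ± 81.7 CPM. Hif1a, Icos and Nfil3 rose by 0.96, 0.88 and 1.57 on the log2 scale. The 16 members that were not called included Klrg1 (0.15, edgeR adjusted p = 0.94), Itgae (-0.04, adjusted p = 1) and Il10 (0.33, adjusted p = 0.7). Pparg, known from VAT Tregs, stood at 59.7 against 21.5 CPM with an edgeR adjusted p of 0.43.

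Suppressive and repair effectors were split. Of 25 tested genes 8 were higher and 2 lower (40%), and the median log2 difference was 0.33, or 0.14 with genes that lacked counts in a tissue set at their bound. Ctla4, the checkpoint receptor that strips CD80 and CD86 from antigen-presenting cells, had CPM of 826, 979, 848, 1079 and 888 in the lungs and 407, 498, 474, 570 and 502 in the spleen. Its log2 difference was 0.91 ± 0.15 (edgeR adjusted p = 1.13e-05), without overlap. Anxa1, which limits inflammation through formyl peptide receptors, rose from 20.4 ± 11.7 to 183 ± 41.7 CPM. Fgl2, a secreted inhibitor of dendritic cells, rose from 142 ± 13.0 to 381 ± 111 CPM, and Furin, a protease that matures TGF-beta, from 16.3 ± 6.14 to 90.96 ± 38.2 CPM. The galectin genes Lgals1 and Lgals3 rose by 0.81 ± 0.17 and 1.96 ± 0.43 on the log2 scale, and Havcr2, which encodes TIM-3, stood at 20.2 ± 11.9 against 0.832 ± 0.800 CPM. Itgb8, the integrin chain with which Tregs activate latent TGF-beta, had 25.8, 26.5, 35.9, 19.1 and 31.4 CPM in the lungs and 97.1, 109, 51.1, 65.7 and 85.1 in the spleen. It was lower in the lungs in all 5 mice (log2 difference -1.55 ± 0.39, edgeR adjusted p = 0.00663), a call that was lost without mouse 2. Cd200, a ligand that restrains myeloid cells, fell from 183 ± 24.7 to 66.0 ± 19.3 CPM. Values for Tigit (280 against 264 CPM, edgeR adjusted p = 0.949) and Il10 did not pass.

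Chemokine receptors, which direct cells to tissues, gave 7 higher and 1 lower of 19 tested (42.1%). Their median log2 difference was 1.36, or 1.21 with genes lacking counts in a tissue at their bound. Ccr2, the receptor for monocyte chemoattractants, had CPM of 396, 566, 605, 526 and 502 in the lungs of mice 1 to 5 and 67.003, 98.4, 85.1, 173 and 134 in the spleen, a log2 difference of 2.22 ± 0.44 (edgeR adjusted p = 0.000326). It stood at 744 ± 50.2 CPM in blood ST2+ Tregs, above the lungs in value. Cxcr4, the receptor for the bone marrow and stromal chemokine CXCL12, rose from 39.0 ± 14.3 to 209 ± 9.74 CPM. Ccrl2, which presents chemerin without signalling, rose from 87.7 ± 12.8 to 226 ± 52.0 CPM. Ccr7, which leads T cells to lymph nodes, was also higher in the lungs (647 ± 103 against 223 ± 38.0 CPM). Its call was lost without mouse 1, 2 or 5. Cxcr5, which leads cells into B cell follicles, had 0.905, 6.24, 0.46, 4.95 and 0 CPM in the lungs and 42.9, 65.3, 20.2, 29.9 and 19.4 in the spleen. It fell by 3.89 on the log2 scale (edgeR adjusted p = 9.91e-05) and was at 0 in blood. The calls of Ccr10 and Ccr1 were lost in 10 and 8 of 16 alternatives, and 3 of the 5 lung libraries carried nearly all Ccr10 counts (89.8, 58.7 and 106 CPM, against 6.34 and 5.72). Ccr8 (0.59, edgeR adjusted p = 0.27) and Cxcr6 (1.21, edgeR adjusted p = 0.096) did not pass.

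Receptors for lipid mediators, neuropeptides and adrenergic signals had 5 of 24 tested genes higher and 0 lower (20.8%), with a median of 0.90. Ramp3, the co-receptor with which calcitonin receptor-like receptor binds adrenomedullin, had CPM of 224, 189, 205, 324 and 187 in the lungs and 15.8, 24.4, 15.8, 6.41 and 1.83 in the spleen. The groups lay far apart (log2 difference 4.13 ± 0.53, edgeR adjusted p = 3.23e-08), and blood ST2+ Tregs had 41.0 ± 31.2 CPM. Calcrl, which encodes that receptor, stood at 53.2 against 19.3 CPM and did not pass (edgeR adjusted p = 0.11). Ltb4r1, the leukotriene B4 receptor, rose from 23.4 ± 19.2 to 165 ± 27.8 CPM and the acid sensor Gpr65 from 77.0 ± 13.5 to 142 ± 8.02 CPM. S1pr1, the receptor for the egress signal sphingosine 1-phosphate, rose from 378 ± 62.5 to 624 ± 39.9 CPM, a call lost without mouse 1 or mouse 3. Ramp2, usual in endothelium, was called from 3 of the 5 lung libraries (16.7, 52.5 and 3.54 CPM) and the call was lost on leaving out any mouse.

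Of 33 cytokine receptor genes, 6 were higher and 0 lower (18.2%), with a median of 0.42. Beside Il1rl1 these were Ifngr1, Ifnar1, Il4ra, Il7r and Il17ra. Ifngr1, the ligand-binding chain of the interferon gamma receptor, rose from 483 ± 70.3 to 1110 ± 159 CPM (log2 difference 1.20 ± 0.14, edgeR adjusted p = 2.04e-09). Ifnar1, a chain of the type I interferon receptor, rose from 254 ± 45.7 to 658 ± 73.3 CPM. Il4ra, shared by the IL-4 and IL-13 receptors, rose from 141 ± 31.7 to 358 ± 62.1 CPM and Il7r from 618 ± 106 to 990 ± 94.2. The IL-2 receptor gene Il2ra, on which Tregs depend, stood at 322 against 449 CPM (-0.48, edgeR adjusted p = 0.063), and the IL-18 receptor genes did not pass.

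The called interferon-stimulated genes were lower in the lungs, unlike these interferon receptors. Of 27 tested, 0 were higher and 7 lower (25.9%, against 1.45% of all genes called lower), and the median was -0.65. Ifi47, an interferon-inducible GTPase gene, had CPM of 159, 262, 160.2, 222 and 208 in the lungs of mice 1 to 5 and 364, 441, 411, 480.3 and 396 in the spleen. All lung values lay below all spleen values (log2 difference -1.05 ± 0.18, edgeR adjusted p = 3.4e-05). Irf9, which forms the type I interferon complex with STAT proteins, stood at 198 ± 32.2 against 326 ± 41.2 CPM. Igtp and Gbp4, GTPase genes of the same kind, fell by 0.66 and 0.69 on the log2 scale. Usp18, which removes ISG15 from proteins and blocks the type I receptor, stood at 14.5 ± 8.89 against 85.5 ± 62.3 CPM, with mouse 4 at 192 in the spleen. The calls of Isg20 and Irf9 were lost in 8 and 6 of 16 alternatives. The direction of the list was not that of every member, as Isg15 stood at 22.7 CPM in both tissues.

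Within the STAT, SOCS and glucocorticoid genes, 5 of 15 were higher and 2 lower (46.7%). Socs1, which inhibits JAK kinases, had CPM of 76.9, 61.9, 57.5, 52.4 and 60.2 in the lungs and 175, 134, 152, 175 and 124 in the spleen (log2 difference -1.30 ± 0.20, edgeR adjusted p = 2.49e-06). Nr3c1, the glucocorticoid receptor, rose from 251 ± 66.8 to 641 ± 126 CPM, and Tsc22d3 and Per1, both known targets of that receptor, rose by 0.72 ± 0.17 and 3.09 ± 0.33 on the log2 scale. The Tsc22d3 call was lost without mouse 3 or mouse 5. Fkbp5, another target, did not pass (0.06, edgeR adjusted p = 0.99). Pim1, a survival kinase induced by STAT5, rose from 51.3 ± 10.4 to 144 ± 23.0 CPM and Stat5b from 222 ± 15.6 to 377 ± 42.3 CPM.

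Genes of quiescence and recirculation gave 4 higher and 2 lower of 20 (30%), with a median of 0.05. Id3, an inhibitor of E proteins that falls in effector Tregs, had CPM of 29.4, 38.0, 29.0, 26.2 and 37.6 in the lungs and 157, 165, 140, 160 and 131 in the spleen (log2 difference -2.23 ± 0.47, edgeR adjusted p = 0.000737). Cxcr5 was the other lower gene, and the higher ones were S1pr1, Ccr7, Il7r and Ets1. The call of Il7r was lost without mouse 3 and that of Ets1 in 10 of 16 alternatives, the mouse block in the compared populations among them. Tcf7 and Lef1, factors of resting T cells, had log2 differences of 0.22 and -0.03.

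Integrins and adhesion genes had 4 of 24 higher and 1 lower (20.8%). Itgav and Itgb3, whose products pair as the vitronectin receptor, rose together, Itgav from 121 ± 33.9 to 539 ± 53.9 CPM and Itgb3 from 47.6 ± 15.1 to 195 ± 23.1. Itgav can also pair with the product of Itgb8, which fell. The Itgb1 call was lost in 10 of 16 alternatives. Itgae, which encodes CD103, and Itgal did not pass.

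In the remaining lists few genes were called. The Treg identity and sort genes had 3 of 14 higher (Ctla4, Il1rl1, Cd44) and Izumo1r lower (28.6%), while Ikzf2 stood at 1178 against 1166 CPM. Of 11 Kruppel-like factors, Klf4 and Klf6 were higher (18.2%), with Klf4 at 33.7 ± 25.0 against 0.305 ± 0.492 CPM. The TNF receptor superfamily had 1 of 15 higher, Tnfrsf10b (6.67%), and the GIMAP family 1 of 8 lower, Gimap7 (12.5%). Hif1a was the only called gene of 24 glycolysis and hypoxia genes (4.17%, near the 4.91% of all genes). Among 32 cell cycle genes 1 was called (3.12%), Mki67, at 155 ± 37.9 against 35.1 ± 17.6 CPM, and all 32 had a positive log2 difference with a median of 0.73. The Mki67 call was lost in 6 of 16 alternatives.

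**Figure D3:**
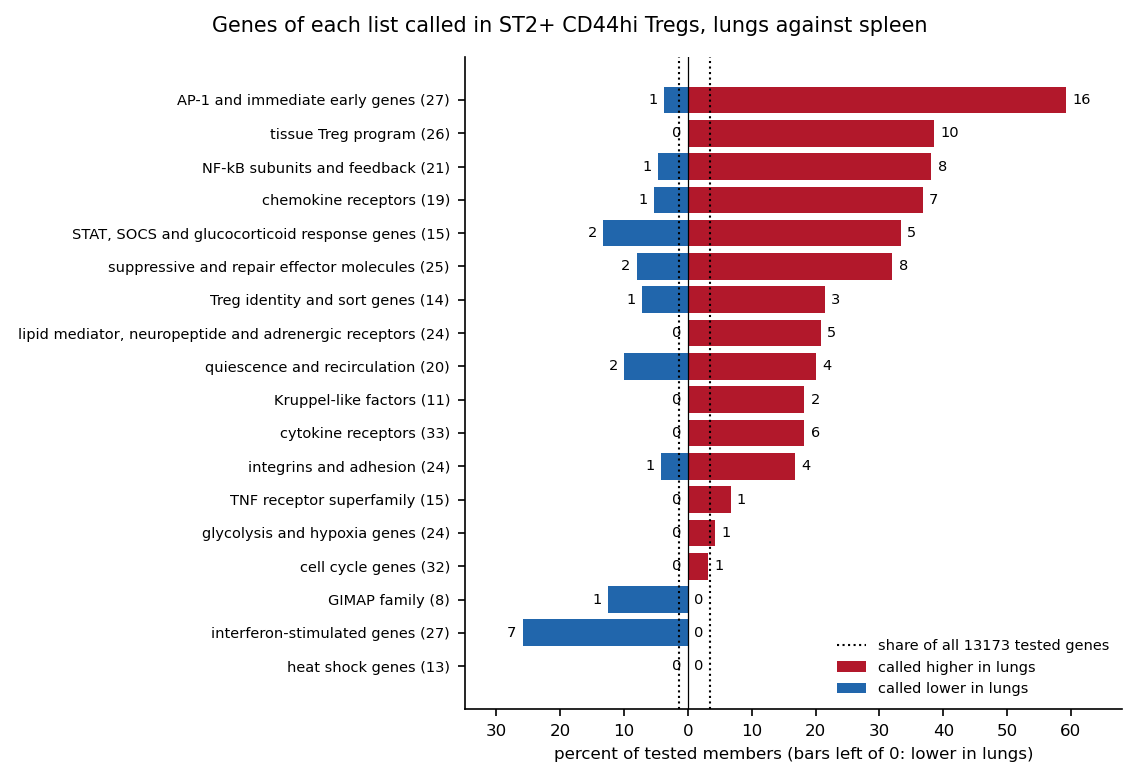
Bars give the percent of tested members of each gene list (number tested in parentheses) called higher in the lungs (red, right) or lower (blue, left) in ST2+ CD44hi Tregs, with the number of genes at the bar's end. Dotted lines mark the 3.46% and 1.45% of all 13173 tested genes; the immediate early list has the greatest share of higher genes and the interferon-stimulated list the greatest share of lower genes.

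To see how far these differences were those of ST2+ cells, the lungs were compared with the spleen in ST2- CD44hi Tregs and in ST2- CD44lo CD62L+ Tregs of the same mice, which share no library with the ST2+ groups. In ST2- CD44hi Tregs 455 genes were higher (3.45%) and 89 lower (0.676%), 4.13% in all. Of the 456 genes higher in ST2+ Tregs, 284 were also called higher there (62.3%, and 62.4% of the ST2- calls). Of the 191 lower genes, 42 were shared (22%, and 47.2% of the ST2- calls). No gene was called in opposite directions. A direct edgeR test of the difference between both comparisons called 0 genes, with 520 at an unadjusted p under 0.05, whereas DESeq2 called 27 and voom 21. With mouse as a block it called 0 genes in the fit of all groups and 15 in the fit of the compared populations, where it called 4 without the block. The smallest adjusted p was that of Klf2, a factor for T cell egress, with a log2 difference of 0.44 in ST2+ and 1.53 in ST2- CD44hi Tregs (edgeR adjusted p = 0.225). An absent call does not show that the populations responded alike, and for Klf2 the difference of the log2 differences was -1.09 ± 0.23 (SE).

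The second was Kit, the stem cell factor receptor. It had CPM of 28.5, 10.9, 25.8, 9.20 and 15.5 in the lung ST2+ libraries of mice 1 to 5 and 2 counts in all in the spleen (ratio 112, 95% counting interval 30.5 to 929). In ST2- CD44hi Tregs it stood at 1.31 and 2.20 CPM in lungs and spleen, and it was at 0 in blood and VAT ST2+ Tregs (difference between populations, edgeR adjusted p = 0.286). Txnip, the third, fell in ST2+ Tregs and stood at 509 and 514 CPM in ST2- CD44hi Tregs of lungs and spleen (edgeR adjusted p = 0.513). By list, AP-1 and the immediate early response had 16 genes higher in ST2- CD44hi and 14 in CD44lo Tregs under edgeR (16 in ST2+ Tregs), the tissue Treg program 13 and 11 (10), and NF-kB 6 and 7 (8). In the same order, genes lower in the lungs numbered 3 and 0 (1), 0 and 1 (0), and 1 and 1 (1). The interferon-stimulated list had 0 of 27 genes called in ST2- CD44hi or CD44lo Tregs, against 7 in ST2+ Tregs. Its median log2 difference was -0.26 in ST2- CD44hi and -0.47 in CD44lo Tregs, against -0.65 in ST2+ Tregs, and no member passed the test of the difference between ST2+ and ST2- CD44hi Tregs. Ifi47, for example, had a log2 difference of -0.46 in ST2- CD44hi and -1.05 in ST2+ Tregs, and the difference of these was -0.59 ± 0.26 (SE).

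**Figure D4:**
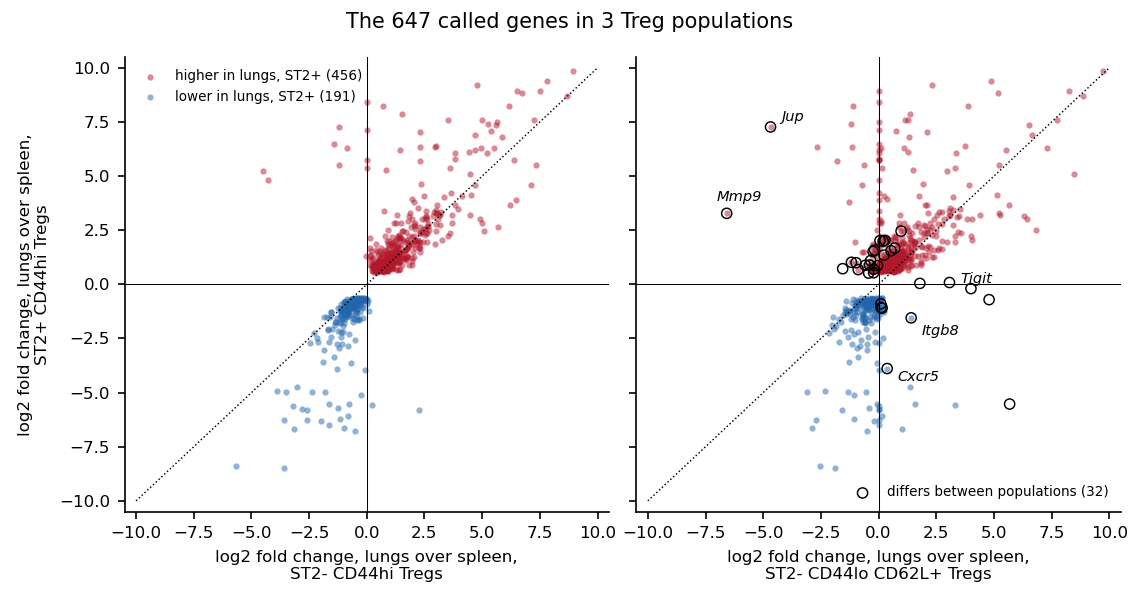
The 647 genes called in ST2+ CD44hi Tregs are plotted by their fitted log2 fold change of lungs over spleen in ST2+ CD44hi Tregs (y axis) against that in ST2- CD44hi Tregs (left) or ST2- CD44lo CD62L+ Tregs (right). Red and blue points are the 456 higher and 191 lower genes, the dotted line marks equal change, and black rings mark the 32 genes, 8 of them not called in ST2+ Tregs, whose differences in ST2+ and CD44lo Tregs differed by the edgeR test.

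CD44lo CD62L+ Tregs are resting cells that recirculate between lymphoid organs. In them 305 genes were higher in the lungs (2.32%) and 126 lower (0.957%), 3.27% in all. They shared 175 of the higher genes with ST2+ Tregs (38.4%, and 57.4% of the CD44lo calls) and 32 of the lower genes (16.8% and 25.4%). All 3 populations shared 158 higher and 19 lower genes. Tnfaip3 stood at 2131 CPM in lung and 238 in spleen ST2- CD44hi Tregs and at 2091 and 225 CPM in CD44lo Tregs. Fosl2 stood at 54.2 and 2.08 CPM in ST2- CD44hi Tregs and 49.6 and 1.17 CPM in CD44lo Tregs, against 180 and 2.51 in ST2+ Tregs. Areg stood at 165 and 19.8 CPM in ST2- CD44hi and 107 and 2.02 CPM in CD44lo Tregs. All 3 of these genes were called higher in the lungs in each population, including cells sorted without ST2, and the mean lung levels of Fosl2 and Areg were highest in ST2+ Tregs, a difference in level that was not tested.

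A test of the difference between ST2+ and CD44lo Tregs, added after the values were seen, called 32 genes (0.243% of those tested; 1023 at an unadjusted p under 0.05). The change was more positive in ST2+ Tregs for 22 (0.167%) and more negative for 10 (0.0759%). Sit1, an adaptor that restrains T cell receptor signals, had 375, 372, 335, 485 and 336 CPM in lung and 171, 196, 156, 183 and 182 in spleen ST2+ Tregs. In CD44lo Tregs it stood at 173 ± 29.3 and 220 ± 27.3 CPM, and the changes differed by 1.44 ± 0.20 on the log2 scale (edgeR adjusted p = 2.82e-05). In ST2- CD44hi Tregs Sit1 was also higher in the lungs (212 to 309 CPM) than in the spleen (147 to 189), so its rise was not confined to ST2+ cells. Hilpda, a lipid droplet protein induced by hypoxia, had 258, 200, 225, 241 and 208 CPM in lung and 24.5, 53.1, 72.0, 55.6 and 73.4 in spleen ST2+ Tregs, against 61.7 ± 26.2 and 59.0 ± 11.7 in CD44lo Tregs (difference 1.96 ± 0.33, edgeR adjusted p = 0.000779). Antxr2, a receptor for collagen fragments and anthrax toxin, behaved likewise, with 274 ± 21.8 and 68.6 ± 19.0 CPM in ST2+ Tregs and 57.8 ± 16.8 and 50.3 ± 9.91 in CD44lo Tregs. Mean levels of Hilpda and Antxr2 were higher in lung than in spleen ST2- CD44hi Tregs as well. Sept11, Itgb3, Chd7, Nr3c1, Gpr65 and Vim were also among the 22. Hmgcs1 and Cyp51, enzymes of sterol synthesis, rose in ST2+ Tregs (42.4 ± 11.4 to 86.3 ± 22.7 CPM and 76.8 ± 38.9 to 154 ± 56.6). In CD44lo Tregs they had 35.4 ± 12.7 CPM in the lungs against 80.0 ± 24.1 in the spleen and 61.9 ± 19.95 against 121 ± 39.4. Their ST2+ calls were each lost in 9 of 16 alternatives, the mouse block in the compared populations among them.

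Itgb8 was called in both populations with opposite direction, lower in the lungs in ST2+ Tregs and higher in CD44lo Tregs (30.2 ± 20.3 against 11.4 ± 4.85 CPM), and the changes differed by -2.96 ± 0.57 (edgeR adjusted p = 0.00503). Cxcr5 had 58.9 ± 32.6 and 45.5 ± 14.9 CPM in lung and spleen CD44lo Tregs and differed by -4.26 ± 0.90 (edgeR adjusted p = 0.0142). In ST2- CD44hi Tregs Cxcr5 was also lower in the lungs (55.7 to 100 CPM) than in the spleen (175 to 206). Txnip had 810 ± 49.0 and 757 ± 89.1 CPM in lung and spleen CD44lo Tregs and differed by -0.9999 ± 0.22 (edgeR adjusted p = 0.0149). Tigit, an inhibitory receptor, was the converse, since it stood at 280 ± 48.5 and 264 ± 43.4 CPM in ST2+ Tregs and at 16.1 ± 6.02 and 1.78 ± 2.11 in CD44lo Tregs. Mmp9, a gelatinase gene, had 159, 127, 238, 127 and 292 CPM in lung and 31.6, 15.6, 25.3, 24.6 and 0.367 in spleen ST2+ Tregs, while all lung CD44lo libraries were at 0. Spleen CD44lo Tregs held some Mmp9 counts, so the contrast joins a rise in ST2+ Tregs to a fall in CD44lo Tregs.

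**Figure D5:**
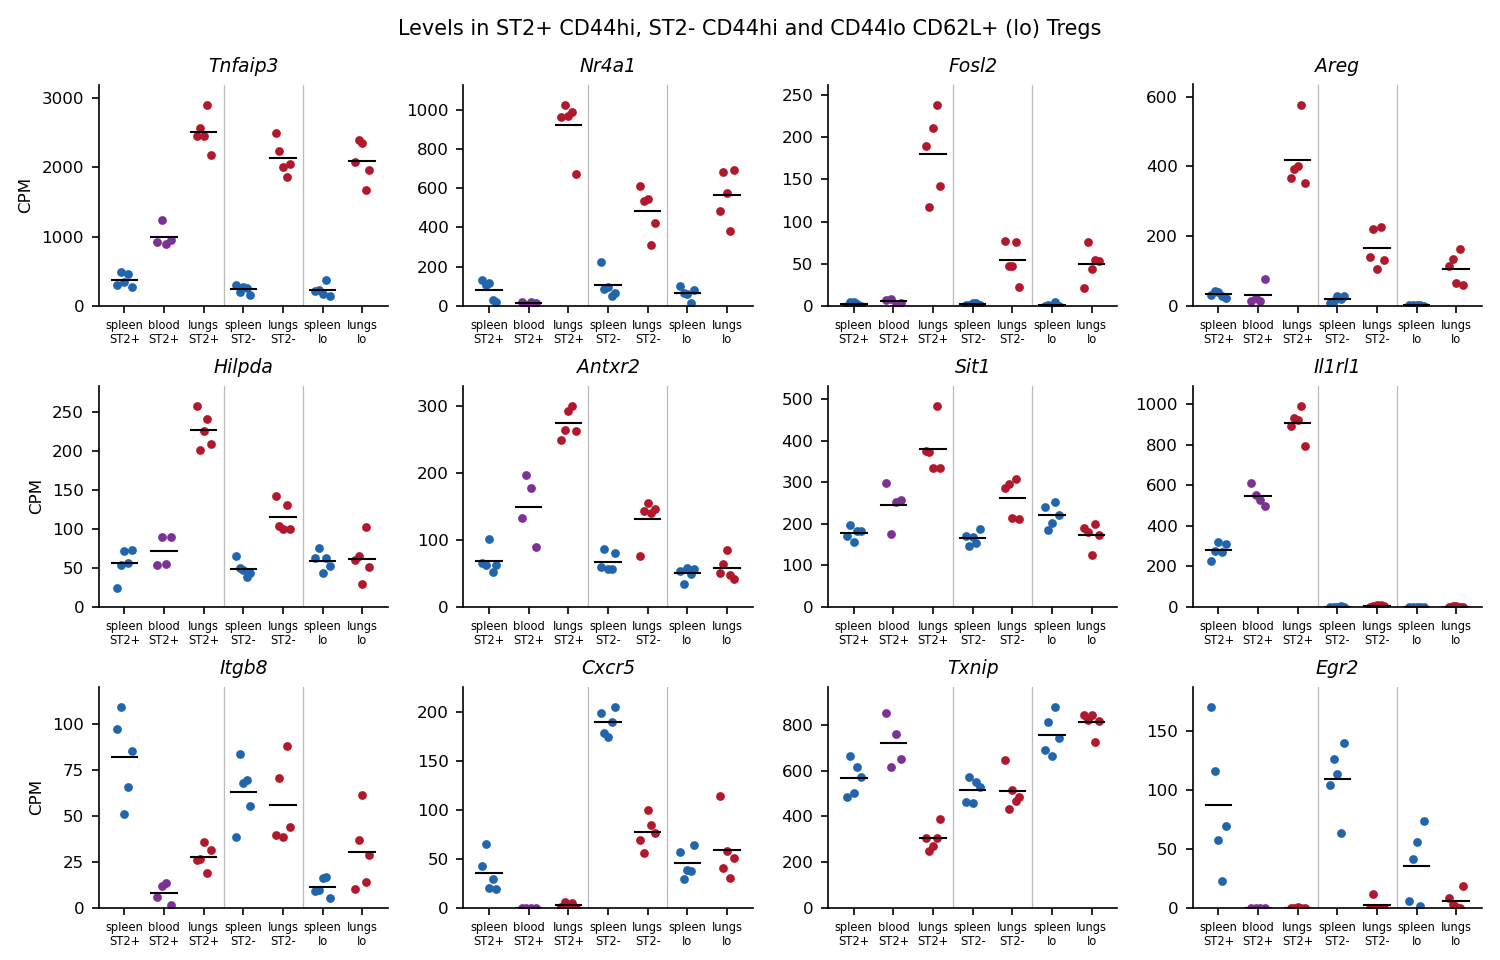
CPM of 12 genes (y axes from 0) in ST2+ CD44hi Tregs of spleen, blood and lungs, ST2- CD44hi Tregs of spleen and lungs, and CD44lo CD62L+ Tregs of spleen and lungs, with 1 point per library (4 in blood, otherwise 5; red lungs, blue spleen, purple blood) and a bar at the mean. Tnfaip3, Nr4a1, Fosl2 and Areg are higher in the lungs in each population, and Hilpda, Antxr2 and Sit1 in both CD44hi populations. Itgb8 and Txnip are lower in lung ST2+ Tregs.

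Genes of lung structural cells were found in the lung libraries. Sftpc, the surfactant protein of alveolar type II cells, had raw counts of 173, 155, 31, 53 and 183 in the lungs of mice 1 to 5 and 0 in all spleen libraries, at least 46.4-fold higher with a floor of 3 counts per library. Scgb1a1, the club cell secretoglobin, and Sftpa1 were likewise in all 5 lung libraries and at 0 in the spleen, at least 20.6-fold and 9.51-fold higher. They were found in lung ST2- CD44hi and CD44lo Tregs too, with Sftpc at 30.8 and 52.0 CPM. In lung CD44lo Tregs Sftpa1 had counts in 2 of the 5 libraries (160 in mouse 1 and 12 in mouse 3). Mouse 1 also led for Sftpc there, with 337 raw counts. The whole epithelial list summed to 130 to 187 CPM in the lungs and 150 to 211 in the spleen, where the sum came from Epcam, Wfdc2 and Ager and the other 10 of 13 markers were at 0. Endothelial markers summed to 115 to 421 in the lungs, with all 9 present, and 67.5 to 192 in the spleen, where 6 of 9 including Cdh5 were at 0. In lung ST2- CD44hi Tregs 6 of 9 including Cdh5 were at 0 as well. Lung CD44lo Tregs summed to 306 to 406 with 8 of 9 at 0 and Pecam1 alone present, so the sum is no measure of endothelial RNA. In lung ST2+ Tregs mouse 3 had the highest sum, and its library held 184 of the 195 lung counts of Plvap and 376 of the 397 of Cd36. All Cxcl1 counts of the lungs came from mouse 1. The called rises of Plvap, Cd36 and Cxcl1 thus rest on 1 library each.

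Macrophage and monocyte markers summed to 8.33 to 36.8 CPM in the lungs and 2.96 to 14.1 in the spleen, with 9 of 14 at 0 in the lungs. Fibroblast markers summed to 0 to 12.7 and 0 to 0.381, with 7 and 1 of 7 having counts. Neutrophil markers summed to at most 1.32 in the lungs and 0 in the spleen. B cell markers summed to 760 to 915 in the lungs and 1200 to 1356 in the spleen, and Pax5 was at 0 in both. CD8 T and NK markers summed to 108 to 146 and 113 to 127. Erythroid markers summed to at most 18 and 12.6. The part of other cells in the differences above was not tested.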

How the data were processed

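The authors sorted Tregs directly into lysis reaction buffer, amplified full-length cDNA with SMART-Seq v4, made NexteraXT libraries and sequenced 58-base single reads on a HiSeq2500. Per the labels and the study's methods, reads were aligned with STAR to GRCm38 and counted per Ensembl gene with HTSeq (version 0.4.1). The deposited table holds raw, whole-number counts per gene and library. The sources used here do not give counting mode or strand setting, the kit does not mark strand, and no molecular identifiers were used.

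Of 53465 gene IDs, 21865 were protein coding in GENCODE M21, and 13173 of these reached 1 CPM in 10% or more of the 67 libraries above 1000000 counts. Counts were scaled by TMM, and printed CPM use these scaled totals, except that summed marker levels are per 1000000 of all counts. The main test was edgeR 4.0.16 (glmQLFit, glmQLFTest; R 4.3.3) with 1 term per group over 14 groups, two-sided, and a call needed a change of 1.5-fold or more with an adjusted p no greater than 0.05. SE is that of the fitted log2 difference. Alternatives were DESeq2 1.42.0, limma 3.58.1 with voom quality weights, glmTreat, other filters, scalings and sample sets, and mouse as a block. Of these alternatives, limma with voom quality weights is the one that the study used. The main fit had no mouse term, although the numbers mark the same animals. Deviations from group means correlated at 0.11 on average within a mouse (0.0435 to 0.2204) and at -0.028 between mice.

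The gene lists, members and named genes were chosen with earlier results of these data known. The named genes are the first 10 higher and first 10 lower genes by adjusted p, those of the interaction by the same order (none was called, so the 3 with the smallest p are given) and members of the lists; Ramp2, Plvap, Cd36, Cxcl1, Mmp9 and the genes of the CD44lo comparison that stand in no list were picked after their values were seen. Folds against groups at 0 used a floor of 3 counts per library. Counts were simulated from each gene's mean over the 67 libraries, with 200 of 13173 genes changed in the lung ST2+ libraries alone. On these counts, edgeR called 33% of genes changed 2-fold and 53% of those changed 4-fold, with 2 false calls. Other differences between groups and the pairing by mouse were not simulated. Promoter windows came from RefSeq (GRCm38.p6), and 10361 of the tested genes matched by symbol. Figures were drawn with matplotlib 3.10.9. Some single genes that belong to the counts of their lists are not reported here.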

Additional observations from a re-analysis of the deposited data

Results flagged for a closer look

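In 142 genes named above, the marker sums and the library measures, 306 groups of 5 libraries were examined for a highest or lowest library whose gap to the next exceeded 0.71 of the range of the group. Chance alone gives about 1 in 20 such groups, and 36 were found; values near 0, where 1 library with counts is enough, were among them. No explanation was tested.

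In the lungs, mouse 4 was the highest library for 8 genes, namely Areg (577 CPM, the others at most 401), Ramp3 (324), Nfkbia (1154), Klf4 (77.9), Sit1 (485), Ccrl2 (316), Ikzf2 (1418) and Lgals1 (417). Mouse 5 was the lowest for Vps37b (265 CPM), Dusp10 (363) and Nr4a1 (673), and the highest for Egr1 (134) and Wfdc2 (7.96). Mouse 3 was the highest for Plvap (84.7 CPM), Cd36 (173), Il10 (121) and Egr2 (0.921), and for the summed erythroid (18) and neutrophil markers (1.32). Mouse 1 was the highest for Cxcl1 (108 CPM) and the summed fibroblast markers (12.7). Mouse 2 was the highest for Il2ra (361 CPM) and the lowest for Epcam (37.4). In the spleen, mouse 1 was the lowest for Izumo1r (547 CPM) and the highest for Chd7 (196) and Il17ra (156). Mouse 2 was the highest for Nr4a2 (35.6 CPM) and Bcl3 (217) and the lowest for Klrg1 (379). Mouse 3 was the highest for Antxr2 (101 CPM), Itgae (645) and Kit (0.792), mouse 4 for Usp18 (192) and Furin (27.2), and mouse 5 for Plvap (0.734) and the fibroblast markers (0.381).

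The lungs-to-spleen change differed between ST2+ and CD44lo Tregs by the edgeR test described above for these named genes, given as the difference of the log2 changes. It was more positive in ST2+ Tregs for Hmgcs1 (2.20), Cyp51 (1.98), Hilpda (1.96), Antxr2 (1.80), Sept11 (1.76), Itgb3 (1.75), Chd7 (1.75), Glrx (1.56), Gpr65 (1.45), Sit1 (1.44), Nr3c1 (1.12), Gna13 (0.97) and Vim (0.91). For Mmp9 the fitted value of 9.86 rests on CD44lo lung libraries at 0 and is no measure of size. It was more negative for Cxcr5 (-4.26), Tigit (-2.99), Itgb8 (-2.96), Trim59 (-1.17) and Txnip (-0.9999).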

How the results depend on the processing

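No gene called in ST2+ Tregs was called in the other direction under any alternative, and the median of all genes shifted by at most -0.022 on the log2 scale. Genes higher in the lungs numbered 456, against 766 with voom and 185 with glmTreat, and 318 to 393 on leaving out a mouse. Genes lower in the lungs numbered 191, against 342 with DESeq2, 675 with voom, 31 with glmTreat, 405 when only the compared populations were fitted, 96 with all 70 libraries and 93 to 148 without a mouse, with fewer than 2 in 3 of the main count without mouse 3 (93), 4 (99) or 5 (112). The paired fit, with mouse as a replicate block, gave 495 higher and 220 lower genes over all groups, and 558 and 373 in the compared populations alone. The voom count splits nearly evenly by direction and the main count does not. The difference between ST2+ and ST2- CD44hi Tregs gave 0 genes with edgeR, 27 with DESeq2, 21 with voom, 15 with the block and 4 without it in the compared populations, and 0 to 1 without a mouse. The ST2- CD44hi count of 544 became 1430 with voom, 175 with glmTreat and 336 to 486 without a mouse (336 without mouse 3). The 32 genes of the CD44lo comparison became 137 with DESeq2, 206 with voom, 7 with glmTreat, 136 with the block and 90 without it in the compared populations, 13 with all 70 libraries, and 10 to 34 without a mouse (14, 10 and 13 without mice 2, 3 and 4). The causes were not tested. Of the 20 genes named by adjusted p, 15 kept their call in all alternatives and 5 lost it under glmTreat. Of 104 other called genes named or listed, 52 kept it in all. Ets1 lost it in 10 of 16 alternatives, Plvap in 10 of 15 and Cxcl1 in 8 of 15; without mouse 1 Cxcl1 had no counts and a log2 difference of 0. With the block in the compared populations Ccr1, Cxcl1, Cyp51, Ets1, Hmgcs1, Jup and Plvap were not called. With 220 cells in each lung and spleen ST2+ library, genes under a few CPM were at 0 in many libraries, and their differences could not be resolved at this depth.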
